A study of Mus musculus with 96 samples.

Results

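The 36 genes described here act in DNA damage signalling and in the repair of broken or crosslinked DNA. They were chosen by name, all 36 are listed among the 40202 genes of each count table, and they were sorted by their known roles into 6 groups. The cells were C10, a mouse lung line whose labels call it alveolar type II epithelium. Of 96 libraries, each made from 1 sorted cell, 48 came from cells with no treatment (control) and 48 from cells given RO-3306, which is marketed as a CDK1 inhibitor (CDK1 is the kinase that drives entry into mitosis), at a labelled 10 nM for 36 h. Both groups were grown in the same medium, and the labels name no culture or passage, so each group was 1 sample, cells were not replicates, and no p-value was computed.

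A cell was kept if it held 50000 or more counts and 1000 or more detected genes, which left 29 control and 37 RO-3306 cells. Their totals ran from 59979 to 6457215 counts (median 1753427) in control and from 295005 to 5321880 (median 2234309) in RO-3306. Mitochondrial counts played no part in this choice. They made up a median of 3.40% in control and 4.42% in RO-3306, with the highest cells at 6.03% and 55.97%. The titles give each cell a letter, A to D, in both groups, with 10, 8, 6 and 5 kept control cells and 10, 10, 11 and 6 kept RO-3306 cells. The meaning of the letters is not given, so these lettered sets served only to show whether a difference had 1 sign throughout. Of 10 alveolar type II markers, Sftpa1, Sftpc, Sftpd, Slc34a2 and Napsa had no count in any kept cell. The 10 together stood at 23.5 CPM (counts scaled to a library total of 1e6) for control, against 27.7 with RO-3306. Most of this came from Lpcat1, at 13.5 and then 18.7, and Abca3, at 9.38 and then 5.21. By the same measure 6 epithelial markers gave 1.78 for control, against 0.978 with RO-3306. A list of 8 mesenchymal markers summed to 5575 CPM in control cells, against 2502 in RO-3306 cells. Thy1 of that list was at 0, and the list's cells ranged from 1329 to 10843 CPM in control and from 1283 to 13860 CPM in RO-3306. The 6 immune markers summed to 31.2 and 15.9 CPM, with Cd3e and Cd79a at 0, and 4 endothelial markers to 0.619 and 0.149 CPM. The part that these differences have in the results below was not tested.

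Cells meet a DNA break with a relay of proteins. The MRE11-RAD50-NBN complex holds the broken ends and activates the kinase ATM, while ATR, brought by ATRIP to single-stranded DNA and switched on by TOPBP1, answers stalled replication forks. Both kinases act through CHEK2 and CHEK1, which hold the cell cycle. The break is then either joined directly, a route that starts with the Ku pair, or cut back and copied from the sister chromatid by homologous recombination, which needs BRCA1 and BRCA2. The Fanconi anaemia proteins open crosslinks for that route. Many of these genes are known to be transcribed most in S phase, when a sister chromatid is being made.

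Summed over all 36 genes, the level was 1408 CPM (95% counting interval 1399 to 1418) in control and 928 CPM (922 to 934) in RO-3306. On the log2 scale the sums differed by -0.60, which lay below 0 in each lettered set, at -0.49, -1.13, -0.04 and -0.97 in sets A to D. The set C value is smaller than the upward shift of 0.21 that TMM factors over all cells bring, so its sign depends on the scaling. The intervals here and below cover counting error only, since reads without molecular identifiers are not independent molecules. Gene by gene, 30 of the 36 reached 5 CPM in the mean of both groups. Atrip, Bard1, Xrcc3, Fanca, Fancb and Ddb2 did not. The median log2 ratio of the 30, with 1 CPM added to both groups, was -0.70, against -0.22 over all 9374 genes at that level. With every gene's control and RO-3306 counts set to opposite limits of their counting intervals, the median was -0.83 or -0.60. It was -1.11, -1.40 and -0.90 in sets A, B and D and 1.33 in set C, so its sign was not the same throughout.

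Of the 30 genes, 26 (86.7%) lay below 0 and 4 above, where 58.95% of all genes lay below 0. At least 2-fold lower in RO-3306 were 11 (36.7%), beside 24.2% of all genes at that level. These were Atr, Mdc1, Blm, Fancm, Nbn, Trp53bp1, Rad50, Atm, Xpc, Fancd2 and Brca2. At least 2-fold higher was 1 (3.33%), Exo1, beside 12.2% of all genes. The 2-fold difference came with the same sign in all 4 sets for 4 lower genes (13.3%), beside 6.43% of all genes, and for 0 higher genes, beside 7.23%. The 4 were Atr, Nbn, Trp53bp1 and Brca2. Scaling by TMM factors instead gave 9 lower and 3 higher genes of the 30, beside 19.6% and 15.5% of all genes, and DESeq2 factors gave 8 and 3, beside 19.2% and 16.04% of all genes.

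**Figure D1:**
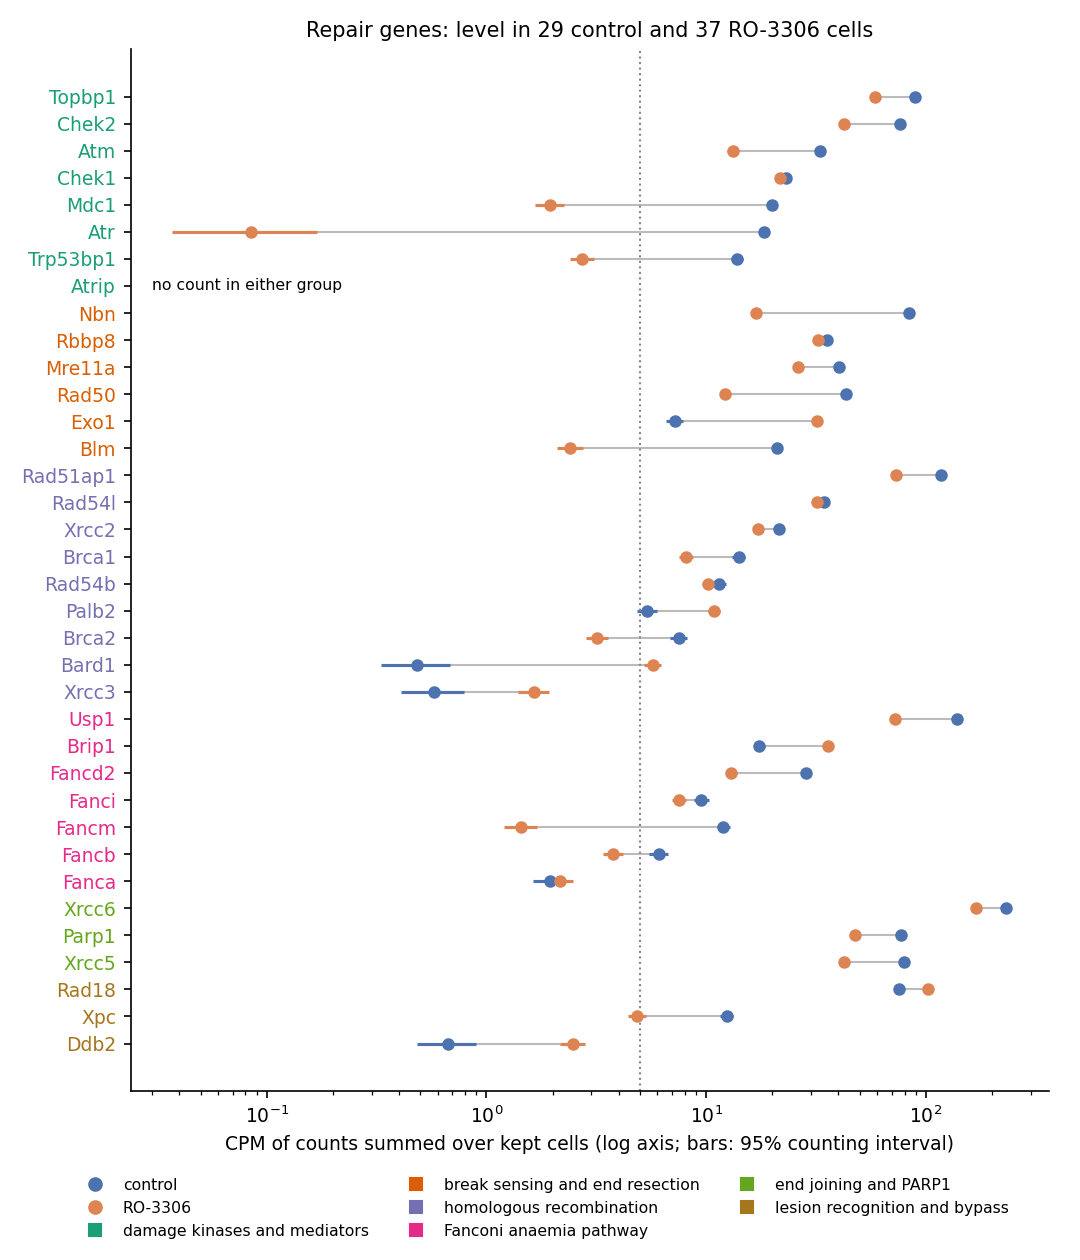
Level of each of the 36 genes in control (blue) and RO-3306 (orange), as CPM of counts summed over 29 and 37 kept cells on a log axis. Bars are 95% counting intervals, gene names are coloured by role, and the dotted line marks 5 CPM. Most orange points lie to the left of the blue ones, with the widest gap for Atr.

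**Figure D2:**
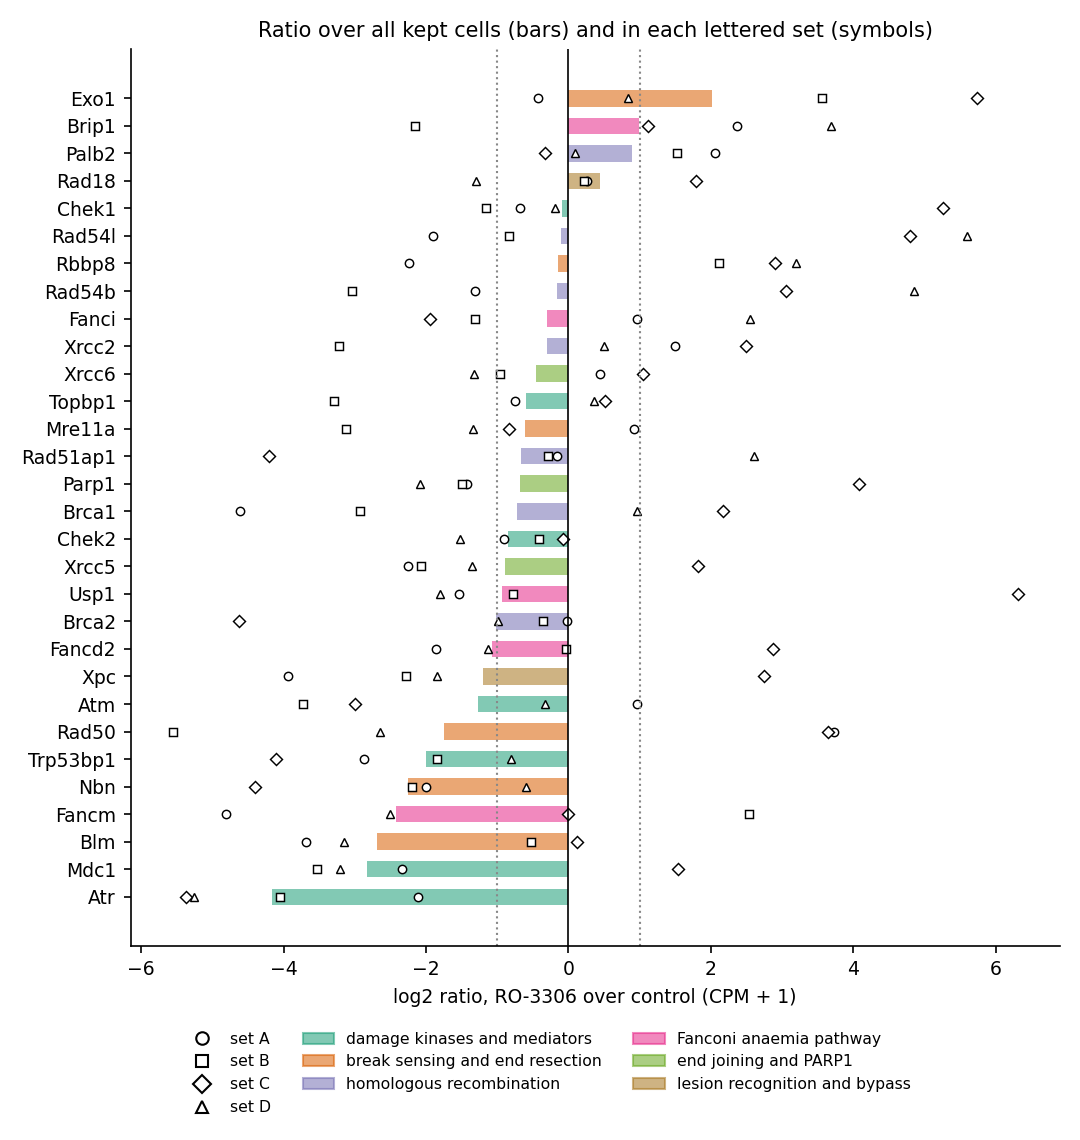
Log2 ratio of RO-3306 over control for the 30 genes of at least 5 CPM, over all kept cells (bars, coloured by role) and in each lettered set (symbols). Dotted lines mark 2-fold. For most genes the sets fall on both sides of 0, while Atr, Nbn, Trp53bp1, Brca2 and Chek2 have all 4 symbols below it.

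Promoter sequence was looked at because genes of this kind are known targets of E2F factors, which switch on S phase genes. RefSeq windows of the GRCm38.p6 build were on hand for 26 of the 36 genes, and the 250 bases before each annotated start were searched on both strands. An E2F-type motif was counted as any of TTTCCCGC, TTTCGCGC, TTTGCCGC and TTTGGCGC. It stood before 6 of the 26 genes (23.1%), namely Bard1, Brca2, Chek2, Mdc1, Topbp1 and Xrcc6, and in 1.86% of all 32851 windows of this length. The words contain CG, and CG content was not matched between the genes and all windows. The sequence CCAAT stood before 15 of the 26 genes (57.7%) and in 33.8% of all windows. TTTGAA, the core of the cell cycle homology region, stood before 1 (3.85%, Bard1) and in 15.99% of all windows, and a full p53 site before 0 and in 0.0639%. None of these words is contained in another. A match is a run of letters and shows no binding.

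The stretches around the match are printed for the 4 of these genes described in most depth below, 5′ to 3′ on the strand of the gene, with the match in capitals. They lie at chr5:150522428-150522485 (Brca2, + strand), chr5:110839806-110839863 (Chek2, + strand), chr9:103305173-103305230 (Topbp1, + strand) and chr15:82016298-82016355 (Xrcc6, + strand), all in GRCm38.p6, and all end before the annotated start. The matches begin at -168, -152, -129 and -46 from that start.
Brca2: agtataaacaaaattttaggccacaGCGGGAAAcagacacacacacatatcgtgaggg
Chek2: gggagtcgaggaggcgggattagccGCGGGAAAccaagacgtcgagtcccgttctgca
Topbp1: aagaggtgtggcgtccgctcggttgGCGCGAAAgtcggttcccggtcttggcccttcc
Xrcc6: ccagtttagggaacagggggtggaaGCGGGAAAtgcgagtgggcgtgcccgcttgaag
Brca2, Chek2 and Xrcc6 carry the same 8 letters, the reverse complement of the first word listed, and Topbp1 carries that of the second. In control cells the 4 genes ranged from 7.49 CPM for Brca2 to 231 CPM for Xrcc6.

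Of the 8 damage kinases and mediators, 7 reached 5 CPM. Of these, 4 (57.1%; Atr, Mdc1, Trp53bp1 and Atm) were at least 2-fold lower in RO-3306, beside 24.2% of all genes. The other 3 had log2 ratios of -0.84 (Chek2), -0.60 (Topbp1) and -0.09 (Chek1). Their sum, Atrip included, was 274 CPM in control cells and 140 with RO-3306 (log2 ratio -0.96), with set values for the median gene of -0.90, -3.29, -0.08 and -0.81. Atr (chr9:95739650-95834813, GRCm39, the build of the count tables) encodes the kinase that answers stalled forks. It had counts in 9 of 29 control cells and in 4 of 37 RO-3306 cells. The highest control cells were D10 at 4602 CPM, C7 at 182, B4 at 80.7 and A10 at 64.3, and the other 5 lay between 0.0763 and 0.519. The 4 RO-3306 cells lay between 0.0482 and 3.93 CPM. So 4 control cells stood above every RO-3306 cell, while the median cell of both groups was at 0. The summed level was 18.3 CPM (17.3 to 19.4) in control and 0.0847 (0.0372 to 0.170) in RO-3306, where it rests on 7.86 counts. The log2 ratio was -4.16, with -2.11, -4.04, -5.36 and -5.26 in sets A to D, and it stayed between -4.28 and -3.54 when any 1 cell was left out. Control D10 is shallow (59979 counts in all), and without it the ratio in set D was -0.05. Of libraries with an Atr count, 46.2% held a fractional count, which marks reads placed at several sites.

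Trp53bp1 (chr2:121025316-121126830) encodes 53BP1, which shields broken ends from being cut back. Counts were found in 17 control and 21 RO-3306 cells. Per cell it ran from 0 through a median of 0.294 to 463 CPM in control and from 0 through 0.283 to 28.5 in RO-3306. The medians were alike and the upper ends were not: 8 control cells and 4 RO-3306 cells reached 10 CPM. The summed level was 13.8 CPM (12.96 to 14.8) in control and 2.72 (2.40 to 3.08) in RO-3306, a log2 ratio of -1.996, with set values of -2.87, -1.84, -4.10 and -0.81. Control C2 held 34.2% of the control counts, and without it the ratio was -1.46.

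Topbp1 (chr9:103182351-103227627), the activator of ATR, was the most abundant gene of the group by CPM. It was counted in 14 control cells (median 0, highest 418 CPM) and in 26 RO-3306 cells (median 11.4, highest 581 CPM). The summed level nevertheless was 88.9 CPM (86.7 to 91.2) in control and 58.5 (57.0 to 60.1) in RO-3306, for a log2 ratio of -0.60, with sets at -0.75, -3.29, 0.51 and 0.35. It was 0.29 without set B and 0.25 after the length correction described below, and -1.26 without RO-3306 C8, which held 40.2% of the RO-3306 counts. More RO-3306 cells had a count, and the typical one held less: the median over cells with a count was 142 CPM in control and 30.8 in RO-3306. Chek2 (chr5:110987668-111022006), the kinase downstream of ATM, was at 76.6 CPM (74.5 to 78.7) in control and 42.2 (40.9 to 43.5) in RO-3306. It was counted in 11 and 13 cells, with highest cells of 438 and 188 CPM and a median cell of 0 in both groups. Its log2 ratio of -0.84 was under 2-fold but had the same sign in each set, at -0.90, -0.42, -0.08 and -1.52.

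Atm, the kinase that answers breaks, was at 33.2 and 13.2 CPM, with a log2 ratio of -1.26 that was 0.97 in set A. Leaving out control B1 (-0.81) or C7 took it under 2-fold, and with cells weighted equally it was 0.12. Chek1, the kinase downstream of ATR, was at 23.03 and 21.6 CPM, a log2 ratio of -0.09 that was 0.40 without control A3 and 0.12 with TMM factors. Mdc1, the scaffold that binds marked chromatin at a break, was at 19.9 and 1.94 CPM, a log2 ratio of -2.83. Control A11 held 45.5% of its control counts, set C went the other way at 1.54, and without A11 the ratio was -2.05. Atrip, the partner of ATR, had no count in any kept cell. The tables list a second gene over 99.8% of its span, and by default the counting tool drops reads that overlap more than 1 gene, so its level was not measured.

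**Figure D3:**
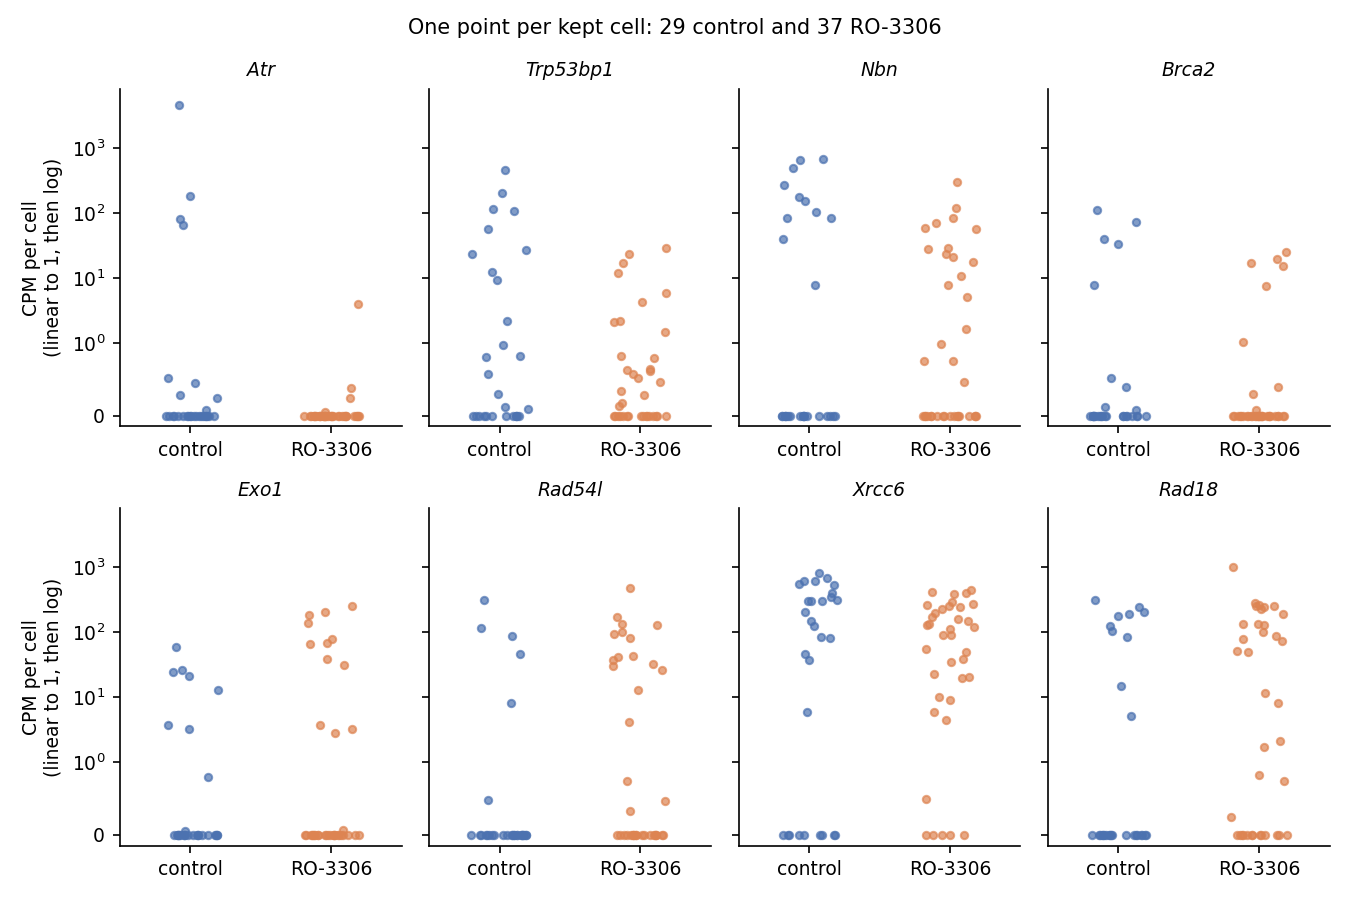
CPM in each kept cell (29 control, 37 RO-3306) for 8 genes, on an axis linear up to 1 CPM and logarithmic above. Atr shows 4 control cells above 50 CPM and no RO-3306 cell above 4, and Xrcc6 has a count in most cells of both groups.

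The genes that sense and cut back broken ends reached a sum of 232 CPM in control cells, against 122 in RO-3306 cells (log2 ratio -0.93). At least 2-fold lower were 3 of 6 (50%), beside 24.2% of all genes, and 1 (16.7%) was at least 2-fold higher, beside 12.2%. Nbn (chr4:15955388-15992589), the subunit that brings ATM to the break, had counts in 11 control and 19 RO-3306 cells. In control it ran from 0 through a median of 0 to 668 CPM, and in RO-3306 from 0 through 0.470 to 300.5 CPM. The 3 highest control cells, C1, C2 and A11, stood above every RO-3306 cell at 668, 645 and 492 CPM. In sum Nbn stood at 84.2 CPM (82.0 to 86.4) in control and 16.9 (16.1 to 17.8) in RO-3306 (log2 ratio -2.25). The set values were -1.99, -2.19, -4.40 and -0.60, and leaving out any 1 cell kept the ratio between -2.55 and -2.0.

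The other subunits of the same complex did not behave alike between sets. Rad50, which tethers the ends, was at 43.4 and 12.2 CPM, with a log2 ratio of -1.74 that was 3.72 in set A and 3.64 in set C. Control B6 held 43.1% of its control counts, and without it the ratio was -1.05. Without set B it was 1.06, so Rad50 turned from at least 2-fold lower to at least 2-fold higher, and with cells weighted equally it was -0.38. Mre11a, the nuclease, was at 40.3 and 26.1 CPM, a log2 ratio of -0.61, with 0.92 in set A. Per kilobase of mRNA, Nbn stood at 33.2 CPM in control, Rad50 at 8.42 and Mre11a at 7.12, whereas in RO-3306 the 3 lay at 6.68, 2.38 and 4.6. All 3 subunits had a count in 5 of 29 control cells (17.2%) and in 9 of 37 RO-3306 cells (24.3%), and at equal depth in 3 of 25 and 4 of 34.

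Rbbp8, on chromosome 18, encodes CtIP, which starts the cutting back of ends. It was counted in 16 control cells (median 0.0901, highest 178 CPM) and 31 RO-3306 cells (median 2.30, highest 243 CPM). Its summed level was 35.7 CPM (34.2 to 37.1) in control and 32.2 (31.1 to 33.4) in RO-3306 (log2 ratio -0.14). The sets gave -2.24, 2.12, 2.89 and 3.19, so set A stood against the rest. Without set A the ratio was 2.13, and with TMM factors it was 0.06, so its sign depends on these choices. Of the libraries with a count, 91.7% held a fractional one. Exo1, the exonuclease that extends the cut, was at 7.21 CPM in control and 32.03 in RO-3306 (log2 ratio 2.01). With 1 CPM added, it was the only one of the 30 genes at least 2-fold higher. Without the added 1 CPM, Brip1 and Palb2 were also just past 2-fold, at ratios of 2.05 and 2.02. For Exo1, leaving out single cells or sets changed the size of the ratio. The set values of Exo1 were -0.42, 3.56, 5.74 and 0.84. The highest RO-3306 cells, C6, B9, C8 and A6, were at 256, 207, 184 and 137 CPM, above the highest control cell at 58.3 CPM, and without C6 the ratio was 1.59. Blm, the helicase that untangles recombining strands, was at 20.98 and 2.40 CPM, a log2 ratio of -2.69. Only 6 cells of each group had a count, and control A5 and RO-3306 D2 held 52.4% and 87.3% of the counts of their groups. The ratio was -1.77 without the first and -4.06 without the second.

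The homologous recombination genes reached a sum of 212 CPM in control cells, against 162 in RO-3306 cells (log2 ratio -0.39). At least 2-fold lower was 1 of 7 (14.3%), beside 24.2% of all genes, and 0 were higher, beside 12.2%. Rad51ap1 (chr6:126900378-126916664), which promotes strand pairing in recombination, was the most abundant. It was counted in 10 control cells (median 0, highest 833 CPM) and 24 RO-3306 cells (median 10.9, highest 385 CPM). The summed level was 117.0 CPM (114 to 120) in control and 73.1 (71.4 to 74.9) in RO-3306, a log2 ratio of -0.67, with -0.16, -0.28, -4.21 and 2.61 in the sets and 0.12 without set C. Here too more RO-3306 cells had a count, and cells with a count held a median of 300 CPM in control and 95.3 in RO-3306. Rad54l (chr4:115951458-115980897), a motor protein of homologous recombination, was at 34.5 CPM (33.1 to 36.0) and 31.95 (30.8 to 33.1). Rad54l had counts in 6 control cells (highest 317 CPM) and 18 RO-3306 cells (highest 485), with a median cell of 0 in both. That highest RO-3306 cell, B3, had 55.97% mitochondrial counts. The log2 ratio was -0.11, from sets at -1.91, -0.83, 4.79 and 5.595, and it was above 0 in 7 of 15 alternatives, among them 0.51 without control A2. Without cells over 20% mitochondrial it was -0.17.

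Brca2 (chr5:150445759-150493612), a tumour suppressor needed for homologous recombination, was low in both groups at 7.49 CPM (6.85 to 8.19) and 3.18 (2.83 to 3.56). It was counted in 9 control and 9 RO-3306 cells, with a median cell of 0 and a highest cell of 112 and 25.4 CPM. In each group 4 cells reached 10 CPM, and all 4 in control (C7, B10, D9 and D10, from 33.3 to 112 CPM) stood above the highest in RO-3306. The lowest of them, the shallow D10 at 33.3 CPM, rests on 2 counts. The log2 ratio was -1.02, just past 2-fold, and its sets were -0.02, -0.35, -4.63 and -0.99. Leaving out any of 19 cells took it under 2-fold, and without control C7 it was -0.43. Brca1, whose protein directs ends towards recombination, was at 14.1 and 8.13 CPM with a log2 ratio of -0.72, and it was 0.09 without control A3 and -1.78 without RO-3306 D6. Palb2, which links BRCA1 to BRCA2, was at 5.40 and 10.9 CPM (0.89). Single cells, control B4 and RO-3306 B7, held 80.8% and 71.1% of its counts, and the ratio was 2.47 without the first and -0.59 without the second. Xrcc2, also of homologous recombination, was at 21.5 and 17.2 CPM (-0.31), and Rad54b, a relative of Rad54l, at 11.5 and 10.2 CPM (-0.16). Rad54b was at 0.85 without control B4 and at -1.36 without RO-3306 D7. Below a mean of 5 CPM were Bard1, the partner of BRCA1 (0.485 and 5.71 CPM, counted in 1 and 5 cells), and Xrcc3 (0.575 and 1.65 CPM, in 1 and 3 cells). Another gene overlies 43.5% of Xrcc3. Brca1 and Bard1 had counts together in 0 of 29 control cells (exact upper limit 11.9%) and in 1 of 37 RO-3306 cells.

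The Fanconi anaemia genes reached a sum of 214 CPM in control cells, against 136 in RO-3306 cells (log2 ratio -0.66). Usp1 (chr4:98812047-98823780), the enzyme that takes ubiquitin off FANCD2, held most of that sum. At least 2-fold lower were 2 of 5 (40%), beside 24.2% of all genes. Usp1 had counts in 16 control cells (median 11.3, highest 578 CPM) and 26 RO-3306 cells (median 34.2, highest 218 CPM). Over all cells Usp1 stood at 139 CPM (136 to 142) in control and 72.04 (70.3 to 73.8) in RO-3306, so the median cell and the sum pointed opposite ways. Its log2 ratio was -0.94, with -1.53, -0.78, 6.30 and -1.81 in the sets. Brip1 (chr11:85948957-86092041), a helicase that binds BRCA1, was at 17.5 CPM (16.5 to 18.5) and 35.8 (34.6 to 37.01), a log2 ratio of 0.99. Counts were found in 25 control and 34 RO-3306 cells, more than for any other gene of the 36, but the median cells were at 0.827 and 1.01 CPM and only 6 and 10 cells reached 10 CPM. The highest cells were at 72.8 and 1823 CPM. The latter, RO-3306 A11, had 18.1% mitochondrial counts and held 28.3% of the RO-3306 counts of Brip1. Without it the log2 ratio was 0.54. The sets gave 2.37, -2.15, 1.12 and 3.68, and 80.6% of libraries with a count held a fractional one.

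Fancd2 and Fanci encode the pair that is clamped on DNA at a crosslink. Fancd2 was at 28.4 and 13.02 CPM (log2 ratio -1.07), with -1.86, -0.03, 2.87 and -1.12 in the sets. Leaving out any of 8 cells took it under 2-fold. Control D10, the shallow cell that was highest for Atr, was also its highest cell at 5235 CPM. Weighting cells equally gave -3.76 for Fancd2 with that cell and -0.28 without it, and set D alone went to 3.32. Fanci was at 9.52 and 7.51 CPM (-0.31), with 0.67 without control C7 and -1.42 without RO-3306 C4. Both genes had a count in 10 of 29 control and 10 of 37 RO-3306 cells. Fancm, the motor that brings the pathway to DNA, was at 11.99 and 1.43 CPM, a log2 ratio of -2.42. Control A3 alone held 89.7% of its control counts, and without that cell the ratio was 0.05. Fanca and Fancb, of the core complex, stayed below a mean of 5 CPM, at 1.95 and 2.16 CPM and at 6.07 and 3.78 CPM.

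The end-joining genes and Parp1 reached a sum of 388 CPM in control cells, against 259 in RO-3306 cells (log2 ratio -0.59). Past 2-fold were 0 of 3, where 24.2% of all genes were lower and 12.2% higher. Xrcc6 (chr15:81868805-81924286), which encodes Ku70, was the most abundant of the 36 both by CPM and per kilobase. Xrcc6 had counts in 20 control cells (median 125, highest 815 CPM) and 32 RO-3306 cells (median 91.7, highest 443 CPM). The 6 highest control cells, from 537 to 815 CPM, stood above every RO-3306 cell, and below them the groups overlapped. Its summed level was 231 CPM (227 to 235) in control and 169 (166 to 171) in RO-3306, a log2 ratio of -0.45, with 0.44, -0.96, 1.05 and -1.32 in the sets. Another gene overlies 42.7% of its span, and by the tool's default a read over both genes is left out. Xrcc5, which encodes its partner Ku80, was at 79.7 and 42.3 CPM (-0.90). Both Ku genes had a count in 6 of 29 control cells (20.7%) and in 15 of 37 RO-3306 cells (40.5%), and at equal depth in 5 of 25 and 14 of 34. Parp1 (chr1:180396456-180428564), the sensor of nicks and breaks, was at 77.2 CPM (75.1 to 79.4) and 47.7 (46.3 to 49.1), a log2 ratio of -0.68. Counts fell in 14 control cells (median 0, highest 1155 CPM) and 19 RO-3306 cells (median 0.0934, highest 178), with -1.43, -1.49, 4.07 and -2.08 in the sets. Without control D7, which held 31.5% of its control counts, the ratio was -0.18.

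The genes of lesion recognition and bypass were the only group whose sum was higher in RO-3306, with 88.3 CPM in control cells and 110 with RO-3306 (log2 ratio 0.31). Rad18 (chr6:112596812-112673650), the ubiquitin ligase that marks PCNA at a blocked fork, made up most of it. Rad18 had counts in 10 control cells (median 0, highest 315 CPM) and 24 RO-3306 cells (median 8.31, highest 993 CPM). That highest RO-3306 cell was A11, with 18.1% mitochondrial counts. Summed, Rad18 was at 75.2 CPM (73.1 to 77.3) in control and 102 (100.2 to 104) in RO-3306, a log2 ratio of 0.44 with 0.26, 0.21, 1.79 and -1.29 in the sets and -0.07 without set C. Xpc (chr6:91466287-91492870), which finds distorted DNA, was at 12.4 CPM (11.6 to 13.3) and 4.86 (4.42 to 5.33), a log2 ratio of -1.20. Counts were found in 6 control cells (highest 150 CPM) and 4 RO-3306 cells (highest 55.9 CPM), with a median cell of 0 in both groups and set values of -3.94, -2.28, 2.75 and -1.84. The ratio was -0.64 without control D9 and -2.03 without RO-3306 D7. Ddb2, which finds ultraviolet lesions and is a known p53 target, stayed below 5 CPM at 0.666 and 2.47 CPM, in 4 and 7 cells.

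These genes are long, and the ratio of all genes went with the length of the mRNA. The 30 genes had a median mRNA of 4259 nt, against 3023 nt for the 9115 genes with a known length. Across all those genes the Spearman rho of length with the log2 ratio was -0.36, and across the 30 it was -0.31. These points share libraries and depth, so the values are descriptions. Among mRNAs over 3959 nt, 9 of 15 genes (60.0%) were at least 2-fold lower, beside 40.6% of all genes of that length, and 1 (6.67%), Exo1, was at least 2-fold higher, beside 7.28%. After the median of genes of like length was subtracted, the median of the 30 was -0.16. Then 6 (20%) were at least 2-fold lower, beside 15.1% of all genes, namely Atr, Blm, Fancm, Mdc1, Nbn and Trp53bp1. Another 3 (10.0%) were at least 2-fold higher, beside 16.6%, namely Exo1, Brip1 and Palb2. Nbn, with an mRNA of 2533 nt, barely moved, from -2.25 to -2.07. Brca2, with 10724 nt, went from -1.02 to -0.13.

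**Figure D4:**
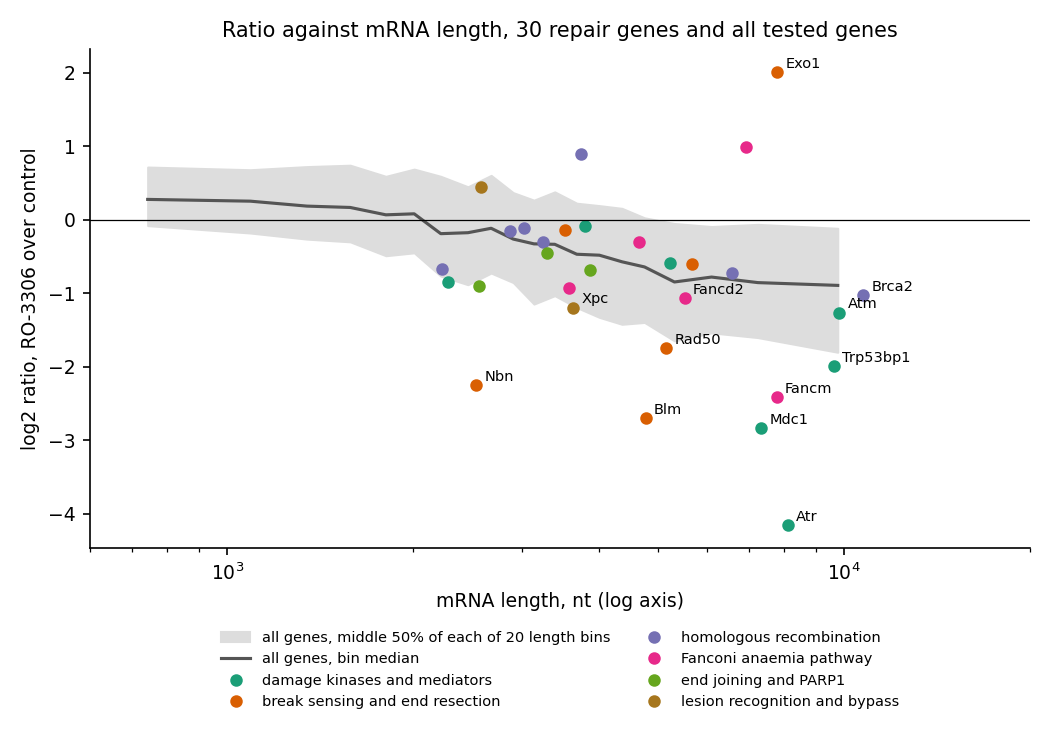
Log2 ratio of RO-3306 over control against mRNA length (log axis) for the 30 genes, coloured by role, with the median (line) and middle 50% (band) of all genes in 20 length bins. The band falls with length, and Atr, Mdc1, Fancm, Blm and Nbn lie well under it, while Exo1 stands above.

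Over all cells at equal depth, the median number of repair genes seen was higher in RO-3306 and their median summed level lower. Each cell was thinned to 639000 counts, which left out 4 control and 3 RO-3306 cells. The 25 control cells then had a median of 9 of the 36 genes with a count (range 1 to 28), and the 34 RO-3306 cells a median of 12.5 (1 to 21). Without thinning the medians were 11 and 16. The summed level of the 36 genes, in contrast, had a median of 1239 CPM per control cell (321 to 2889) and 793 CPM per RO-3306 cell (9.39 to 1784). The groups overlapped widely in both measures. By set the median number of genes was 10, 10.5, 7 and 8 in control and 14.5, 10, 13 and 14.5 in RO-3306, so set B was slightly lower. The median sums were 898, 1313, 1196 and 2435 CPM in control and 890, 529, 898 and 1069 CPM in RO-3306, with little difference in set A. RO-3306 cells also had more detected genes in total, with a median of 5964 against 4576. The 36 made up a median of 0.202% of the detected genes in RO-3306 and 0.207% in control.

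Single genes were compared in the same cells. At equal depth, 19 of the 30 (63.3%) were counted in a larger share of RO-3306 cells and 11 in a smaller one, where 72.01% of all genes had a larger share, with a median difference of 2.88 percentage points against 9.06 over all genes. The share was at least 20 points higher for 2 of the 30 (6.67%), Rad54l (16% to 44.1%) and Xrcc2 (24% to 44.1%), beside 27.5% of all genes. It was at least 20 points lower for 0, beside 1.95%. Among cells with a count the level was lower: of 25 genes counted in at least 3 cells of each group, 22 (88.0%) had a lower median in RO-3306, beside 66.1% of all such genes. The median of those log2 ratios was -1.13, against -0.43 over all genes. This comparison of cells with a count was added after the values were seen. The sums rest on few cells: the top cell held a median of 35.03% of a gene's control counts and 31.05% of its RO-3306 counts, against 29.7% and 21.1% over all genes.

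**Figure D5:**
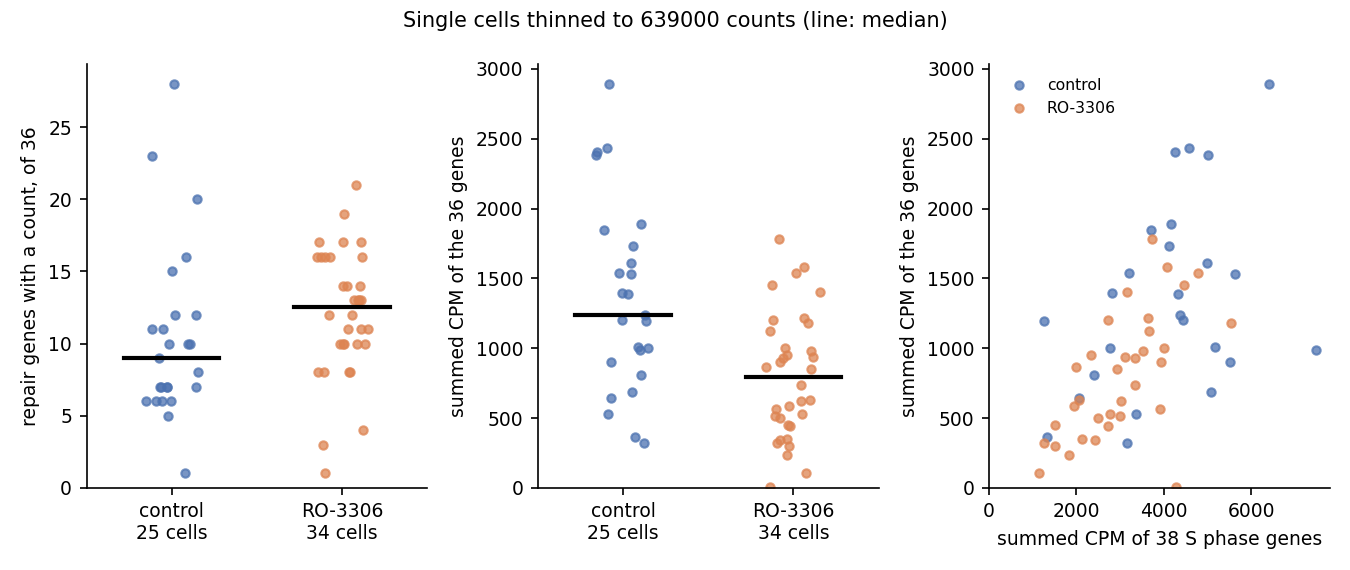
Single cells at equal depth: repair genes with a count per cell (left), their summed CPM (middle) and that sum against the summed CPM of 38 S phase genes (right), for 25 control and 34 RO-3306 cells. Black lines are medians, at 9 and 12.5 genes and at 1239 and 793 CPM.

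A list of 38 S phase genes that holds none of the 36 reached a sum of 4195 CPM in control cells, against 3134 in RO-3306 cells. Its median log2 ratio was -0.59, with -0.39, -1.12, 0.67 and -0.41 in the sets. At least 2-fold lower were 9 of 35 (25.7%) and higher 2 (5.71%), so the lower share was near that of all genes. Across RO-3306 cells at equal depth, the summed repair level and the summed S phase level had a Pearson r of 0.62 and a Spearman rho of 0.66 (34 cells), and r was 0.59 without the 2 cells farthest from the median S phase level. By set r was 0.69, 0.82, 0.42 and 0.69 in A to D. Across 25 control cells r was 0.40 and rho 0.35, and r was 0.55 without the 2 farthest cells. Within sets it could be had only for A and B, with 0.66 in set A (9 cells) and -0.26 in set B (8 cells). With the number of detected genes r was 0.42 in RO-3306 and 0.14 in control, with p53 targets 0.37 and 0.075, and with G2/M genes 0.35 and 0.23. Cells of a group share a preparation, so these are descriptions without a p-value. The part of S phase transcripts in the lower repair sum was not tested. A list of 19 p53 targets went the other way, with 1644 CPM in control cells, 3042 in RO-3306 cells, and 9 of 19 at least 2-fold higher and 0 lower.

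The rest of the pathway, 97 further genes of damage signalling and repair, reached a sum of 5576 CPM in control cells, against 5609 in RO-3306 cells. Of the 78 that reached 5 CPM, 19 (24.4%) were at least 2-fold lower and 7 (8.97%) higher, with a median log2 ratio of -0.12. With the same sign in all sets, 5 (6.41%) were lower and 1 (1.28%) higher. The lower shares were near those of all genes (24.2% and 6.43%), and the higher shares were under theirs (12.2% and 7.23%). The genes named next are given as values and are not read as a change in the pathway, which was not tested. Cdc25a, the phosphatase that CHEK1 marks for destruction, was at 26.2 and 0.980 CPM (log2 ratio -3.78). Slx4, a scaffold for nucleases at crosslinks, was at 26.6 and 2.14 CPM (-3.14). Rif1, which works with 53BP1 to protect ends, was at 53.7 and 7.07 CPM (-2.76). Prkdc, the kinase that Ku brings to ends, was at 9.24 and 1.90 CPM (-1.82), and Ddb1, the adaptor that pairs with DDB2, was at 209 and 81.7 CPM (-1.34). Cdc25b, a phosphatase that activates CDK1, was the higher gene, at 34.6 and 80.8 CPM (1.201). The other recombination genes as a list gave 2642 and 2588 CPM, a log2 ratio of -0.03 for the sums.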

How the data were processed

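The authors deposited, for each cell, a table of expected counts per gene. Per the file headers it was made with featureCounts 2.0.3 on the RefSeq GRCm39 annotation, over whole gene spans, with reads placed at several sites split into fractions and no strand option. The submitters' processing notes also name FastQC and STAR, without versions. Per the labels' protocols, libraries came from the SMART-seq v4 kit and were read once over 150 nt. Counts carry no molecular identifiers.

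Counts were summed over kept cells and scaled to CPM. The ratio is log2 of RO-3306 over control with 1 CPM added, which understates changes of low genes. Intervals are exact Poisson, exact conditional or Clopper-Pearson at 95%, from rounded counts. Cells were thinned to percentile 10 of the totals. mRNA length came by symbol from GENCODE M21 (97.2% of genes matched), and its trend was removed as the median of 20 length bins. Steps were tested on simulated cells that vary around a shared mean. That checks the code and not how reliable ratios are where few cells hold most counts. A full account was given to genes past 2-fold with 1 sign in 4 sets and to the 2 most abundant of each role, and the rest by level and ratio. Other pathway genes were named only past 2-fold with 1 sign in 4 sets. The members, lists and rules were chosen with earlier results of these data known. Alternatives were TMM (edgeR 4.0.16) and DESeq2 1.42.0 factors, other pseudocounts, level and cell filters, equal weights, thinning, length subtraction and left-out sets or cells. Python 3.11.15, numpy 2.4.6, scipy 1.17.1, pandas 2.3.3, matplotlib 3.10.9 and R 4.3.3 were used.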

Additional observations from a re-analysis of the deposited data

Results flagged for a closer look

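The libraries left out for holding fewer than 50000 counts or fewer than 1000 detected genes also held repair transcripts. Summed over 11 left-out RO-3306 libraries, the 36 genes stood at 426 CPM (389 to 465), above the 257 CPM (207 to 318) of 19 left-out control libraries. This signal lies outside the cells compared above. RO-3306 library D4 held 52.3% of the 495 counts, and control library C5 held 75.1% of 87.8 counts. Both levels were below those of the kept cells, at 928 and 1408 CPM.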

How the results depend on the processing

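None of the results for the whole list changed direction under any alternative run. The median log2 ratio was -0.50 with TMM factors, -0.48 with DESeq2 factors, -0.89 after thinning and -0.16 after length subtraction. TMM and DESeq2 factors shift every ratio up by about 0.21 and 0.24. Leaving out a lettered set or a cell gave -0.93 to -0.59. The count of genes at least 2-fold lower was 4 at a minimum of 20 CPM, where 17 of the 36 genes remain. Of all genes at that minimum, 19.7% were lower. After length subtraction the count was 6, beside 15.1% of all genes. With a set or cell left out it was 9 to 13, and with a set left out 24.2% to 27.6% of all genes were lower. The count at least 2-fold higher was 3 with TMM factors, DESeq2 factors, no minimum, equal weights or length subtraction. Of all genes, 12.6% to 16.6% were higher under these. It was 2 with a pseudocount of 0.1 CPM or after thinning, beside 12.7% and 13.9% of all genes. At the 20 CPM minimum it was 0, beside 8.51%. With a set or cell left out it was 1 to 4, and with a set left out 13.1% to 15.9% of all genes were higher. The added genes were among Brip1, Palb2, Bard1, Ddb2, Rad54l, Rbbp8, Rad50 and Xrcc2. The log2 ratio of the sums was -0.39 with TMM factors, -0.37 with DESeq2 factors, -0.88 with cells weighted equally, -0.77 after thinning, and -0.73 to -0.47 with a set or cell left out. The causes of these shifts were not tested. The median number of genes with a count, 9 in control and 12.5 in RO-3306, ranged over the alternative runs from 6 to 11 and from 9.5 to 16. For the 15 genes described in full, 148 of 225 values moved by more than counting error, and 17 values of 5 genes took the other sign (Rad54l 7, Rbbp8 6, Topbp1 2, Rad51ap1 and Rad18 1 each). Of the genes past 2-fold that are not among the 15, Rad50 was 1.06 without set B and Atm 0.12 with cells weighted equally. Atr, Trp53bp1 and Nbn stayed at least 2-fold lower in each of 15 alternatives, as did Mdc1 and Blm, and Exo1 stayed higher, although of these 6 only Nbn reaches the 20 CPM minimum. Brca2 stayed at least 2-fold lower in 10 of 15. These 15 alternatives take in no minimum and the 20 CPM minimum, where a gene's ratio is the same by construction. They do not take in the removal of single cells, which the 225 values do. How far depth limits single genes and cells was not tested. Thinning before summing also weights cells equally and leaves out cells under 639000 counts. It moved Xrcc6 from -0.45 to -0.89 and Parp1 from -0.68 to -1.27, both well above 5 CPM, but Rad18 only from 0.44 to 0.46.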
